A study of Homo sapiens with 18 samples.

Results

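The SMAD feedback regulators of TGFβ signalling, 10 of the 19849 genes of the expression table, were followed in lung cancer cells before and after TGFβ-induced EMT. They are the genes whose symbol in the table is SMAD3, SMAD6, SMAD7, SKI, SKIL, SMURF1, SMURF2, PMEPA1, BAMBI or TGIF1, and each was read by 1 probe set. The table holds 18 Affymetrix U133 Plus 2.0 arrays in 6 groups of 3, namely parental and mesenchymal cells of the lung cancer lines A549, HCC827 and NCI-H358. The cells of all groups were grown in RPMI1640 with FBS and glutamine. The mesenchymal cells had been kept with 2 ng/ml TGFβ for 3 weeks by the sample labels, which also state a change to medium without TGFβ on the day before lysis, while the methods speak of re-seeding without TGFβ on the day before an experiment, so their levels describe cells without added TGFβ for that last stretch. The methods give a range of treatment times that extends further for HCC827 and NCI-H358 than for A549. Were the times of these arrays unequal, the cell line and the length of treatment could not be told apart. The labels state no treatment for the parental cells, which the study's text calls untreated, and no group received TGFβ for a short time. The study's text describes the samples averaged for an array heatmap as separate biological samples made at the same time, so p-values measure the spread between such samples and not between independent experiments. RNA was extracted from whole cultures, so a change in every cell and a change in the share of cells that express a gene cannot be told apart.

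TGFβ binds a pair of receptor kinases at the cell surface, which phosphorylate SMAD2 and SMAD3. These join SMAD4, enter the nucleus and switch on target genes, among them the pathway's own brakes. SMAD7 and SMAD6 block the receptors, SMURF1 and SMURF2 are ubiquitin ligases that mark receptors and SMADs for degradation, PMEPA1 holds SMADs away from the receptor, BAMBI is a receptor-like protein without a kinase, and SKI, SKIL and TGIF1 are co-repressors that bind SMADs on DNA. In epithelial cells of the lung the pathway restrains growth and, with long exposure, drives the change to a mesenchymal state.

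Markers of the state were read first. CDH1, the epithelial cadherin, changed by -5.81, -2.95 and -3.94 on the log2 scale in A549, HCC827 and NCI-H358, and ZEB1, a repressor of epithelial genes, by 0.79, 4.18 and 3.66 (limma adjusted p at most 2.52e-05 for these genes). The values are RMA log2 expression values, with array medians between 6.31 and 6.47. Over all genes the SD of the log2 differences was 0.163 to 0.282 between arrays of 1 group and 0.719 to 0.896 between parental and mesenchymal arrays of 1 line. Of 6 markers of the state, 4 rose and 2 fell in each line. Of 4 keratins of epithelial carcinoma cells 3 fell in A549 and 4 in each of the other lines. Of 4 fibroblast markers 3 rose in each line, led by LUM, which encodes the matrix proteoglycan lumican. The log2 of their summed level was 6.51 to 6.66 in parental and 7.20 to 7.23 in mesenchymal A549 arrays, 6.83 to 6.96 in parental and 9.03 to 9.69 in mesenchymal HCC827 arrays and 8.58 to 8.68 and 10.45 to 10.58 in NCI-H358, and their part in the results was not tested. The log2 of the summed level of 5 immune markers was at most 8.26 in any array and that of 4 endothelial markers at most 7.54. Of the immune markers 1 rose and 1 fell in A549, 1 fell in HCC827 and none passed in NCI-H358. Of the endothelial markers none passed in A549, 2 rose in HCC827 and 1 rose in NCI-H358. The latter was KDR, with means of 4.60 before and 6.20 after EMT.

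PMEPA1, SKIL and SMAD7 rose upon EMT in all 3 lines, and no regulator fell in all 3. SMAD3, the transducer itself, fell in A549 and NCI-H358. SMAD6, SMURF2 and BAMBI passed the test in opposite directions in different lines, SKI and SMURF1 passed in 1 line each, and TGIF1 passed in none. A gene passed with a Benjamini-Hochberg adjusted p below 0.05 over all 19849 genes in 1 limma fit of the 18 arrays. By that rule 7 of the 10 regulators passed in A549, 5 higher and 2 lower, where 43.4% of all genes passed, 16.6% higher and 26.8% lower. In HCC827 6 passed, 5 higher and 1 lower, against 45.8% of all genes, 20.8% higher and 25% lower. In NCI-H358 8 passed, 5 higher and 3 lower, against 41.4%, 21.5% higher and 19.8% lower. The share of all genes that rose in all 3 lines was 4.31%, that of genes that fell in all 3 was 6.14%, and that of genes that passed in opposite directions was 15.7%. With a change of at least 2-fold required as well, 4 regulators passed in each line, against 8.02%, 11.5% and 9.38% of all genes. At the study's own thresholds, an adjusted p below 1e-05 and a change above 5-fold, PMEPA1 passed in HCC827 and NCI-H358, and no other regulator passed anywhere, against 1.9%, 2.95% and 2.17% of all genes in A549, HCC827 and NCI-H358. In A549, HCC827 and NCI-H358 the 10 regulators had median log2 fold changes of 0.40, 0.15 and 0.25, and all genes of -0.021, 0.0051 and 0.015.

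**Figure D1:**
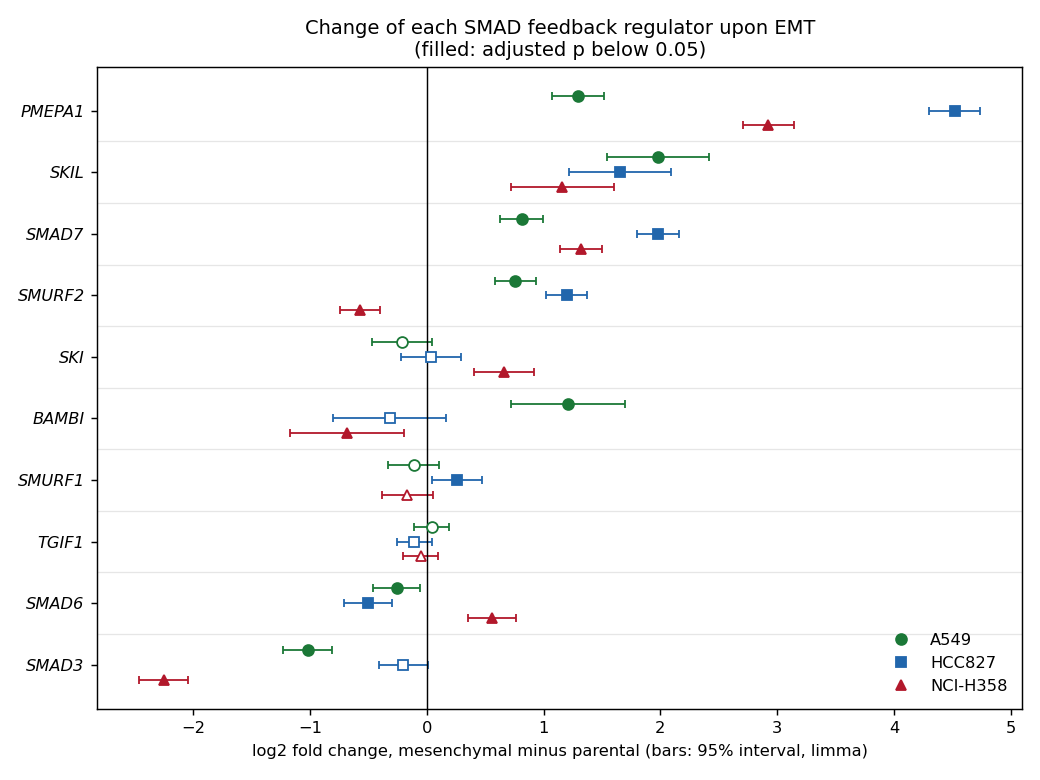
Log2 fold change of the 10 regulators, mesenchymal minus parental, in A549 (circles), HCC827 (squares) and NCI-H358 (triangles), with the 95% interval of the limma fit as bars and filled symbols for an adjusted p below 0.05. PMEPA1, SKIL and SMAD7 lie to the right of 0 in every line, SMAD3 lies to the left, and SMURF2, BAMBI and SMAD6 have filled symbols on either side.

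PMEPA1 showed the widest change of the 10 in HCC827 and NCI-H358. In A549 SKIL changed more, by 1.98 against 1.29 on the log2 scale. The membrane protein PMEPA1 is itself induced by TGFβ and limits the phosphorylation of SMAD2 and SMAD3. In HCC827 the log2 level of PMEPA1 was 8.47, 8.86 and 8.75 in the parental arrays and 13.18, 13.16 and 13.30 in the mesenchymal arrays, a 22.9-fold increase. Parental NCI-H358 cells had 10.52, 10.48 and 10.15 and their mesenchymal derivatives 13.28, 13.26 and 13.39, a 7.59-fold increase. For A549 the values were 11.90, 12.06 and 11.87 before and 13.26, 13.26 and 13.18 after EMT, a 2.45-fold increase. The groups did not overlap in any line, and the parental lines were spread widely while the mesenchymal ones lay together. For A549 the log2 fold change was 1.29 (SE 0.10, adjusted p = 2.18e-08 by limma), for HCC827 4.52 (SE 0.10, adjusted p = 1.84e-15 by limma) and for NCI-H358 2.92 (SE 0.10, adjusted p = 5.64e-13 by limma). Parental means spanned 3.25 on the log2 scale, and mesenchymal means 0.0972. In mesenchymal cells PMEPA1 stood at percentiles 99.5, 99.5 and 99.6 of the table, near the top of the measured levels, and whether saturation of the probe set bears on the closeness of these means was not tested. Groups did not overlap in 52.4%, 51.2% and 51.6% of all genes in A549, HCC827 and NCI-H358.

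SMAD7, the inhibitory SMAD that occupies the activated TGFβ receptor and brings SMURF ligases to it, rose in the same order of lines as PMEPA1. HCC827 cells went from 8.25, 8.24 and 8.16 to 10.20, 10.16 and 10.23, a log2 fold change of 1.98 (SE 0.0859, adjusted p = 4.90e-12 by limma). NCI-H358 cells went from 8.48, 8.42 and 8.44 to 9.90, 9.72 and 9.67, a change of 1.32 (SE 0.0859, adjusted p = 1.18e-09 by limma). A549 cells went from 8.88, 9.22 and 9.24 to 9.93, 9.88 and 9.97, a change of 0.81 (SE 0.0859, adjusted p = 6.34e-07 by limma). Every mesenchymal array lay above every parental array of any line. Parental A549 cells had the highest parental level and rose least, by 1.76-fold, whereas parental HCC827 cells had the lowest and rose most, by 3.94-fold.

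SKIL encodes SnoN, a co-repressor that represses SMAD target genes until TGFβ has it degraded and that is then made anew as a target gene. Its level was 5.50, 5.25 and 5.35 in parental and 7.33, 7.22 and 7.49 in mesenchymal A549 arrays, a change of 1.98 (SE 0.21, adjusted p = 5.57e-07 by limma). In HCC827 it was 4.67, 4.90 and 4.25 before and 6.58, 6.57 and 5.63, a change of 1.65 (SE 0.21, adjusted p = 3.37e-06 by limma). In NCI-H358 it was 4.63, 4.60 and 4.79 before and 5.69, 5.73 and 6.08, a change of 1.16 (SE 0.21, adjusted p = 0.000187 by limma). The increases were 3.94-fold, 3.14-fold and 2.23-fold, and the groups were separate in each line. The lowest mesenchymal HCC827 array stood well below the other 2, which gave SKIL its widest SD, 0.54. The probe set was dim in parental cells, at percentiles 24.4 to 35.8 of the table.

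The sequences just before the transcription start are shown for these 3 regulators that rose in every line, and for TGIF1, which passed in none. They are the 250 bases before the start in RefSeq on GRCh38.p14, where 9 of the 10 regulators have a window. Only the first window listed for a gene was used, and other starts were not examined. Capitals mark the SMAD binding element CAGAC on either strand (GTCTG on the strand shown) and the GC-rich SMAD site GGCGCC, which reads the same on both strands. No promoter activity or SMAD binding was measured here, and the starts used in these cells are not known from the arrays.
SMAD7 (chr18:48950966-48951215, minus strand): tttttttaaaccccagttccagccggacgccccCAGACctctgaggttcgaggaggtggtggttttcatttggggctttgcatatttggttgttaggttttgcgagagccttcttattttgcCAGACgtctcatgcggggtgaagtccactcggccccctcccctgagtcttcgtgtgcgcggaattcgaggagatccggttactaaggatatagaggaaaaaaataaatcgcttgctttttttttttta
SKIL (chr3:170357465-170357714, plus strand): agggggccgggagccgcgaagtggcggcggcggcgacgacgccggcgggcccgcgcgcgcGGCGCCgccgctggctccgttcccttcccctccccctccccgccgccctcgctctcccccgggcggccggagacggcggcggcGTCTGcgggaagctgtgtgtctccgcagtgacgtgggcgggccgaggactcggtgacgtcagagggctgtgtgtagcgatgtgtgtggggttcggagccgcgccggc
PMEPA1 (chr20:57711473-57711722, minus strand): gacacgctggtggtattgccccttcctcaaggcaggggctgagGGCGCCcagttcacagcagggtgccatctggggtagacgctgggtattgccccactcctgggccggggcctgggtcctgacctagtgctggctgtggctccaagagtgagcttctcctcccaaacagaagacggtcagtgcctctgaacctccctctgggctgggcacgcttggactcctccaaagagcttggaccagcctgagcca
TGIF1 (chr18:3411759-3412008, plus strand): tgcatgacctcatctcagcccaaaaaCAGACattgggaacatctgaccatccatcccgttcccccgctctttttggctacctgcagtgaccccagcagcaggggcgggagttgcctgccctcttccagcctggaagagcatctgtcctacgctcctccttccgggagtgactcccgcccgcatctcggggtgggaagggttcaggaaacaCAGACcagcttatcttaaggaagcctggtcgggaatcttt
SMAD7 held CAGAC 2 times, beginning at positions -217 and -128 from the start. SKIL held it 1 time, at -107, together with GGCGCC at -190, and PMEPA1 held only GGCGCC, at -207. TGIF1 held CAGAC 2 times, at -224 and -40. In the windows not shown, BAMBI held CAGAC 2 times and GGCGCC 3 times, SMAD3 held GGCGCC 2 times and SMURF1 held CAGAC 1 time. Those of SMAD6 and SMURF2 held neither. Any part of these sites in the changes was not tested. Of 35116 windows of this length in the table, 38% held CAGAC and 8.84% held it at least 2 times. GGCGCC occurred in 16.4% of all windows, at least 2 times in 3.08% and at least 3 times in 0.527%. An E-box bound by ZEB and SNAI factors, CACCTG or CAGGTG, occurred in the window of SMURF2 alone among the regulators, at -245, and in 17.5% of all windows, and the AP-1 site TGANTCA in none of them and in 6.57% of all windows. A match of letters is a description and shows no binding.

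**Figure D2:**
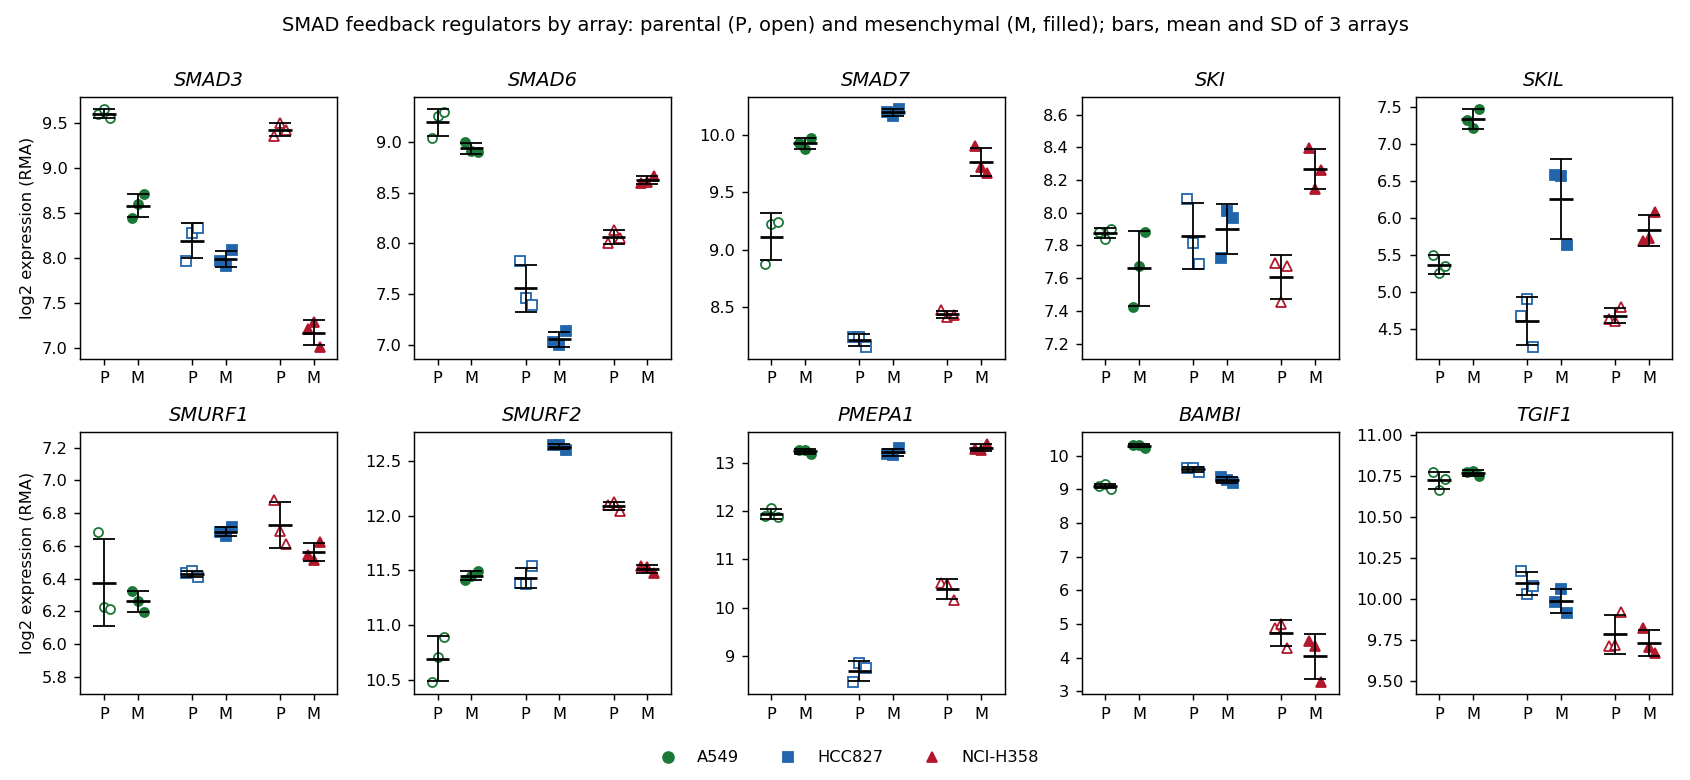
RMA log2 level of the 10 regulators in each of the 18 arrays, by line, in parental (P, open) and mesenchymal (M, filled) cells, with the mean and SD of 3 arrays in black. The vertical axis differs between panels. PMEPA1 ends near 13 in all mesenchymal cells, SMURF2 rises in A549 and HCC827 and falls in NCI-H358, and BAMBI is lower by more than 4 in NCI-H358 than in the other lines.

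SMAD3, the transducer that carries the TGFβ signal to the genes these regulators control, fell in the 2 lines where it passed the test. In NCI-H358 it dropped from 9.35, 9.50 and 9.42 to 7.21, 7.28 and 7.02, a log2 fold change of -2.25 (SE 0.0982, adjusted p = 6.42e-12 by limma), 4.77-fold lower. In A549 it dropped from 9.60, 9.66 and 9.55 to 8.44, 8.59 and 8.71, a change of -1.02 (SE 0.0982, adjusted p = 2.02e-07 by limma), 2.03-fold lower. HCC827 had 7.97, 8.27 and 8.33 before and 7.97, 7.91 and 8.09 after, groups that overlapped, and the change of -0.20 did not pass (95% interval -0.41 to 0.01, limma adjusted p = 0.111). It passed when replicate 1 of the parental HCC827 cells, the lowest of them, was left out (-0.31, limma adjusted p = 0.0110) and with array weights (-0.30, adjusted p = 0.00518). The 6 groups ran from 9.60 in parental A549 to 7.17 in mesenchymal NCI-H358, and the difference between parental A549 and NCI-H358 did not pass (limma adjusted p = 0.137).

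SMAD6, an inhibitory SMAD that acts mainly on BMP receptors and is a target of BMP signalling, passed in each line but not in 1 direction. It rose in NCI-H358, from 8.005, 8.14 and 8.06 to 8.59, 8.61 and 8.67, by 0.56 (SE 0.0957, adjusted p = 0.000130 by limma). In HCC827 it fell from 7.82, 7.47 and 7.39 to 7.03, 7.002 and 7.14, a change of -0.50 (SE 0.0957, adjusted p = 0.000285 by limma). In A549 it fell slightly, from 9.04, 9.25 and 9.29 to 8.996, 8.91 and 8.90, a change of -0.26 (SE 0.0957, adjusted p = 0.0383 by limma). The groups were separate in each line, and all 5 neighbouring pairs in the order of its 6 means differed by limma. The fall in A549 was lost without replicate 2 or 3 of either A549 group, with limma adjusted p between 0.0938 and 0.136, and with arrays centred on their medians (-0.19, adjusted p = 0.114).

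Of the related ubiquitin ligases, SMURF2 passed in all lines and SMURF1 in HCC827 alone. SMURF2 rose in HCC827 from 11.38, 11.37 and 11.54 to 12.65, 12.64 and 12.60, by 1.20 (SE 0.0821, adjusted p = 1.82e-09 by limma). In A549 it rose from 10.48, 10.71 and 10.89 to 11.41, 11.45 and 11.49, by 0.76 (SE 0.0821, adjusted p = 8.56e-07 by limma). In NCI-H358 it fell from 12.09, 12.12 and 12.05 to 11.54, 11.53 and 11.47, a change of -0.57 (SE 0.0821, adjusted p = 1.99e-05 by limma), and parental NCI-H358 cells had held more of it than the other parental lines. The 3 groups in the middle of its order, mesenchymal NCI-H358, mesenchymal A549 and parental HCC827, lay within 0.09 of each other and no difference between neighbours among them passed (limma adjusted p = 0.538 and 0.856). SMURF1 stayed between 6.20 and 6.88 in all 18 arrays. In HCC827 it went from 6.43, 6.45 and 6.41 to 6.68, 6.66 and 6.72, a change of 0.26 (SE 0.10, adjusted p = 0.0480 by limma). That call was lost in 13 of the 18 refits that each dropped 1 array, with limma adjusted p up to 0.109, while the change itself stayed between 0.24 and 0.27. It held only without a parental A549 array or without parental NCI-H358 replicate 1 or 3, and it was also lost with an intensity trend (adjusted p = 0.0594). In A549 and NCI-H358 the changes were -0.11 (95% interval -0.33 to 0.10) and -0.17 (-0.38 to 0.05). No difference between neighbours in the order of its 6 means passed.

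BAMBI, the decoy receptor, had a far lower level in NCI-H358 than in the other lines. Its level was 9.10, 9.15 and 9.02 in parental and 10.33, 10.32 and 10.24 in mesenchymal A549 arrays, a rise of 1.21 (SE 0.23, adjusted p = 0.000354 by limma). HCC827 had 9.63, 9.64 and 9.51 before and 9.36, 9.28 and 9.18 after, separate groups whose difference of -0.32 did not pass (95% interval -0.81 to 0.17, limma adjusted p = 0.294). The SD was at most 0.089 in the A549 and HCC827 groups and up to 0.67 in NCI-H358, and in a fit of HCC827 alone the difference passed (limma adjusted p = 0.0165). NCI-H358 had only 4.87, 5.01 and 4.29 in parental and 4.50, 4.34 and 3.27 in mesenchymal arrays, which overlapped. The change there was -0.69 (SE 0.23, adjusted p = 0.0234 by limma). It was lost without mesenchymal replicate 3, the lowest array (-0.30, adjusted p = 0.129), without parental replicate 1 or 2 (adjusted p = 0.0797 and 0.110) and in a fit of NCI-H358 alone (adjusted p = 0.135). At percentiles 25.6 and 16.1 of the table, BAMBI was near the dim end of the arrays in NCI-H358, and no detection calls were used here. Parental NCI-H358 cells lay 4.37 below parental A549 cells (limma adjusted p = 2.46e-11).

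Of the remaining co-repressors SKI passed in NCI-H358 and TGIF1 in no line. SKI, the relative of SKIL, rose in NCI-H358 from 7.69, 7.45 and 7.67 to 8.39, 8.15 and 8.26, by 0.66 (SE 0.12, adjusted p = 0.000249 by limma), 1.58-fold. In A549 it had 7.88, 7.84 and 7.90 before and 7.42, 7.67 and 7.88 after, and in HCC827 8.08, 7.81 and 7.69 and 7.72, 8.01 and 7.97, with overlap in each. The 95% intervals of the change were -0.47 to 0.04 and -0.22 to 0.30, and without mesenchymal A549 replicate 3, the highest of its group, the change in A549 passed (-0.33, limma adjusted p = 0.0483). TGIF1, a homeobox co-repressor that competes with co-activators for SMAD2 and SMAD3, changed by 0.04, -0.11 and -0.05 in A549, HCC827 and NCI-H358. The intervals, -0.11 to 0.19, -0.26 to 0.04 and -0.20 to 0.10, reach at most 0.26 from 0. Its parental and mesenchymal means were 10.72 and 10.77 in A549. For HCC827 they were 10.09 and 9.99, and NCI-H358 had 9.79 and 9.73. Parental A549 cells exceeded parental HCC827 cells in TGIF1 (limma adjusted p = 5.68e-07).

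Whether EMT moved a regulator by the same amount in each line was tested as a difference of log2 fold changes in the same fit. Between HCC827 and A549 the change of 6 regulators differed, against 42.2% of all genes, between NCI-H358 and A549 that of 8, against 42.8%, and between NCI-H358 and HCC827 that of 7, against 37.9%. The change of 9 regulators differed between at least 1 pair of lines, against 60.2% of all genes. With a difference of at least 2-fold required, the counts were 3, 4 and 4 in the same order, against 13.4%, 12.7% and 11% of all genes, and at the study's thresholds 1, 0 and 0, against 2.92%, 3.01% and 2.06%. The rise of PMEPA1 in HCC827 exceeded that in A549 by 3.23 (95% interval 2.91 to 3.54, limma adjusted p = 2.25e-11), with NCI-H358 in between. SMAD7 had the same order, and HCC827 exceeded A549 by 1.17 (0.91 to 1.42, adjusted p = 6.02e-07). SMURF2, up in HCC827 and down in NCI-H358, differed by -1.77 (-2.01 to -1.52, adjusted p = 3.38e-09), and SMAD3 by -2.05 (-2.35 to -1.76, adjusted p = 4.86e-09) in the same comparison. SMAD6 went the opposite way, 1.06 higher in NCI-H358 than in HCC827 (0.77 to 1.35, adjusted p = 7.94e-06). For SKIL, which rose in all lines, the change differed only between NCI-H358 and A549, by -0.82 (-1.44 to -0.20, adjusted p = 0.0325), and that call was lost in 7 of the 18 refits that each dropped 1 array, with adjusted p up to 0.0735. Those were the refits without parental A549 replicate 2 or 3, mesenchymal A549 replicate 1 or 3, parental NCI-H358 replicate 3 or mesenchymal NCI-H358 replicate 1 or 2. For TGIF1 no difference passed, and the interval of its differences that reached furthest from 0 was -0.36 to 0.06, between HCC827 and A549. The comparisons share the arrays of the lines they have in common.

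**Figure D3:**
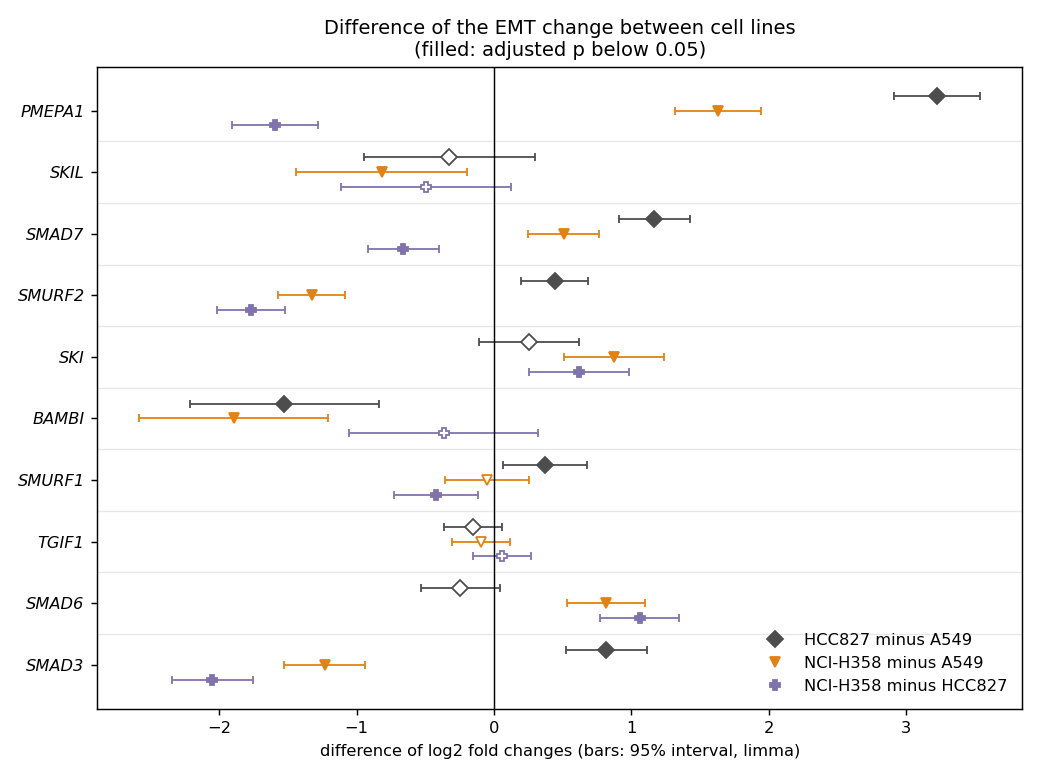
Difference of the EMT log2 fold change between pairs of cell lines for the 10 regulators, with 95% intervals of the limma fit as bars and filled symbols for an adjusted p below 0.05. PMEPA1 differs by 3.23 between HCC827 and A549, SMURF2 and SMAD3 are shifted to the left in NCI-H358 against either other line, and the symbols of TGIF1 are open.

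The regulators also differed in whether lines or states set their level apart. Among parental lines the range of means was 4.87 for BAMBI, 3.25 for PMEPA1, 1.63 for SMAD6 and 0.90 for SMAD7 on the log2 scale. Among mesenchymal lines it was 6.26 for BAMBI and 1.88 for SMAD6, but 0.43 for SMAD7. For PMEPA1 the 3 mesenchymal means, 13.31, 13.23 and 13.21, gave no passing difference between neighbours (limma adjusted p = 0.568 and 0.882), whereas the parental means all did. For SMAD7 mesenchymal HCC827 exceeded mesenchymal A549 (adjusted p = 0.0128), while the difference between mesenchymal A549 and NCI-H358 did not pass (adjusted p = 0.114). In SKIL, mesenchymal A549 stood above all other groups, and the order of mesenchymal HCC827, mesenchymal NCI-H358 and parental A549 was not resolved between neighbours (adjusted p = 0.0964 and 0.0653). Over all regulators 26 of the 50 neighbouring pairs differed, against 30.5% of such pairs over all genes.

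For the 3 regulators that rose in all lines, the genes of the table with the most similar pattern were sought by the root mean square difference of the 6 group means, each gene centred on its own mean. Nearest to SMAD7 were TNRC6C, at 0.122 on the log2 scale, GOLIM4, at 0.155, and CAVIN4, at 0.176. Nearest to SKIL were BMPR2, at 0.223, TGFBR1, at 0.238, and MGC12916, at 0.278, the first a BMP receptor and the second the TGFβ receptor kinase that phosphorylates SMAD2 and SMAD3. Nearest to PMEPA1 were GFPT2, at 0.409, ZEB1, at 0.558, and COL7A1, at 0.570. The measure describes 6 means of 3 arrays each.

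The other parts of the pathway were read from lists of its ligands, receptors, transducers, inhibitors and target genes. Of 20 target genes of SMAD3 and SMAD4 17 rose and 1 fell in A549, 18 rose and 1 fell in HCC827, 15 rose and 2 fell in NCI-H358, and their median log2 fold changes were 2.64, 2.13 and 1.44. Among the 14 that passed in 1 direction in all lines, those with large mean changes included INHBA, an activin subunit (10.02, 7.01 and 2.93 in A549, HCC827 and NCI-H358), TAGLN, an actin-binding protein (3.64, 4.21 and 3.76), and COL1A1, a collagen chain (3.42, 4.41 and 3.65). The exception in direction was IGFBP3, which fell in all lines (-1.39, -5.05 and -1.44).

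Of 11 receptors for TGFβ, activin or BMP, 4 rose and 4 fell in A549, 6 rose and 3 fell in HCC827, and 7 rose and 2 fell in NCI-H358, with medians of -0.14, 0.32 and 0.43. TGFBR1 rose by 2.16, 2.07 and 0.59, BMPR2 by 1.86, 1.38 and 1.34 and ACVR1, a BMP and activin receptor, by 0.43, 0.70 and 0.52. TGFBR2, the receptor that binds TGFβ first, changed by -0.48, -1.06 and -0.19, lower in all lines (limma adjusted p at most 0.0202). Of the 3 TGFβ ligands, TGFB1 rose in every line, by 0.82, 1.63 and 2.24. The medians of the 3 were 0.02, 0.64 and 2.24. Of the 5 other SMAD genes 2 rose in A549, 1 rose and 2 fell in HCC827, and 4 rose in NCI-H358, with medians of 0.05, -0.11 and 0.33. None of them passed in 1 direction in all lines, and SMAD4, the common partner, passed in HCC827 and NCI-H358 alone, at 0.39 and 0.37.

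Of 19 other inhibitors of the pathway 2 rose and 8 fell in A549, 5 rose and 9 fell in HCC827, and 7 rose and 4 fell in NCI-H358, with medians of -0.20, -0.11 and 0.15. PPM1A, a phosphatase that removes phosphate from SMAD2 and SMAD3, rose in all lines by 0.36, 0.80 and 0.58. WWP2, a ubiquitin ligase related to the SMURFs, changed by -0.68, -0.86 and -0.33 and CTDSPL, a phosphatase, by -1.12, -0.79 and -0.33, lower in each line. Of 10 genes listed as targets or modulators of BMP signalling 7 rose and 1 fell in A549, 4 rose and 5 fell in HCC827, and 7 rose and 1 fell in NCI-H358, with medians of 0.67, -0.16 and 0.62. NOG, which encodes the BMP antagonist noggin, rose by 1.45, 2.52 and 2.72, HEY1, a transcriptional repressor, by 2.52, 2.06 and 0.30, and MSX1, a homeobox factor, by 0.39, 1.23 and 1.08. The lists were written with earlier results of these data known, and 25 of the 68 genes on the pathway lists passed in 1 direction in all lines, against 10.4% of all genes. With at least 2-fold in each line the share of all genes was 1.67%, and at the study's thresholds 0.242%. Their counts stand beside 43.4%, 45.8% and 41.4% of all genes that passed in either direction, and their medians beside -0.021, 0.0051 and 0.015 over all genes.

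**Figure D4:**
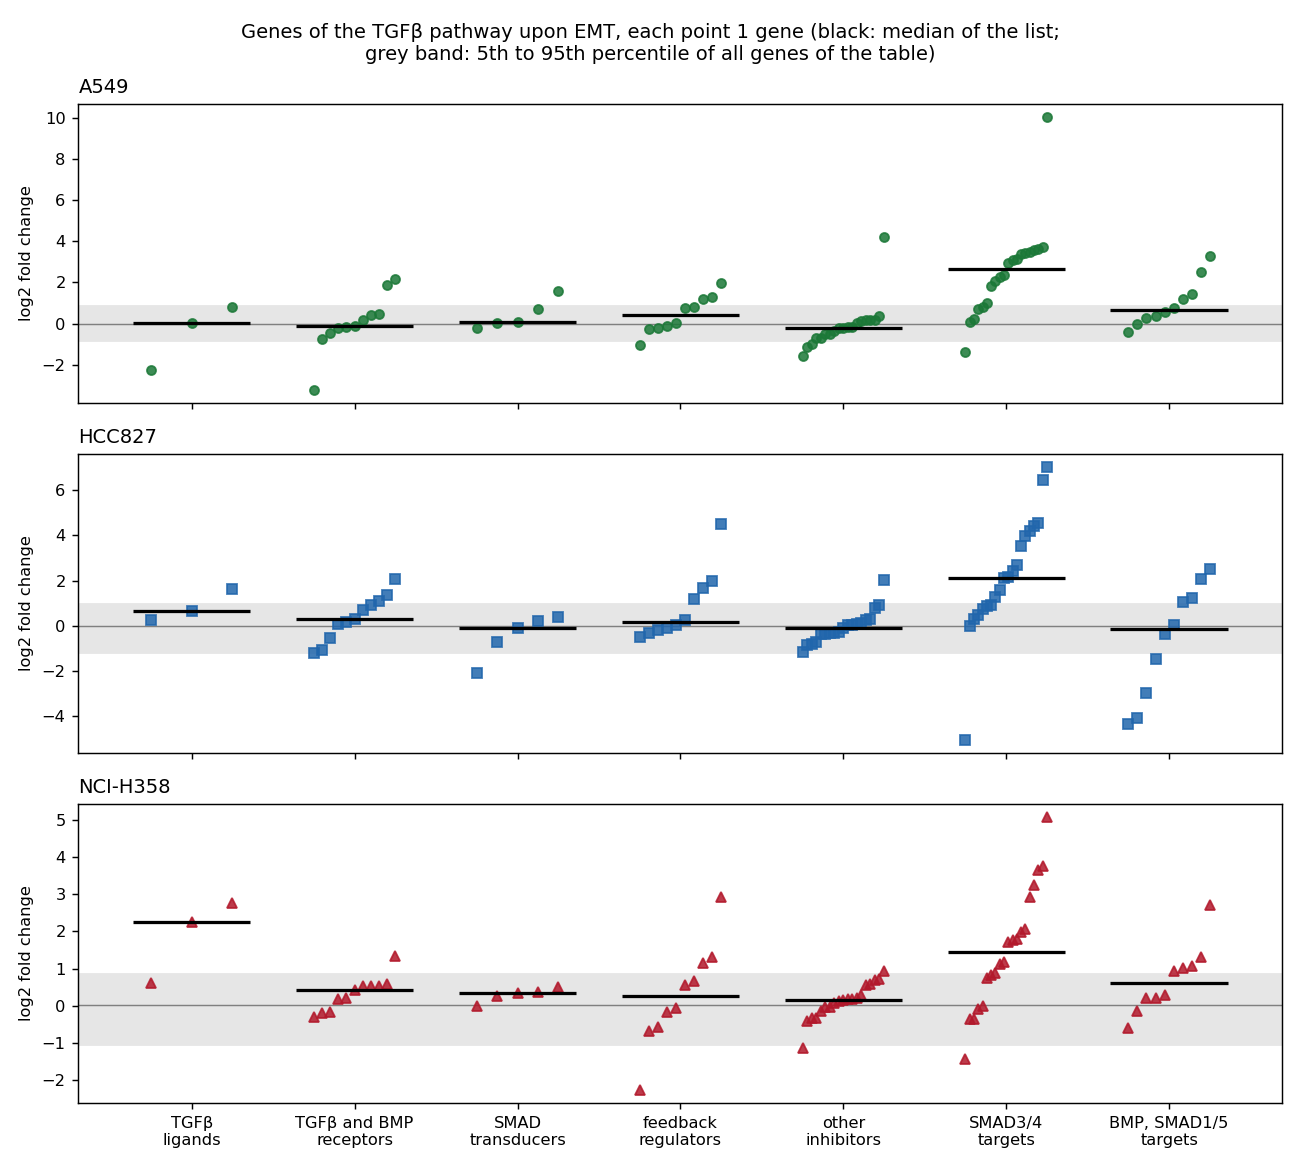
Log2 fold change upon EMT of each gene of 7 lists of the TGFβ pathway (points), with the median of each list in black and the 5th to 95th percentile of all genes of the table as a grey band, in A549, HCC827 and NCI-H358 from top to bottom, on axes of different range. The SMAD3 and SMAD4 target genes have the highest median in A549 and HCC827, the 3 TGFβ ligands in NCI-H358, and the 10 feedback regulators spread to either side of 0.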

How the data were processed

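Total RNA of 18 cultures was hybridized to Affymetrix U133 Plus 2.0 arrays. The authors normalized the arrays with RMA in R, which corrects background, equalizes the distributions between arrays and summarizes each probe set, and deposited log2 expression values for 1 probe set of each of 19849 genes. How that probe set was chosen is not given in the sources used here, and other probe sets of the regulators were not analysed here. Each column bears the title of 1 sample, and samples were grouped by the source name in their labels. The labels give no replicate numbers, so replicates were numbered here by the order of the samples within each group. Arrays have no sequencing depth, and 3 arrays per group limit the precision.

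The values were fitted with lmFit and eBayes of limma 3.58.1 under R 4.3.3, with 6 groups and no covariate, so that all groups share 1 estimate of the spread per gene. Changes, differences of changes and all 15 pairs of groups were contrasts in this fit, each adjusted by the Benjamini-Hochberg method over all genes. With 3 arrays per group an exact two-sided permutation p cannot go below 0.1, so none is given. Fold changes are 2 to the power of a difference of mean log2 values. Gene names were taken from NCBI RefSeq through the gene ID for 19326 of the genes. The steps were tested on simulated data.

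All 10 regulators were named. From each list the genes that passed in 1 direction in all 3 lines were named, at most 4 with the largest mean change, together with CDH1 and ZEB1 and the 3 nearest patterns. A target gene that this rule names is not reported here. IGFBP3, SMAD4 and the genes under other observations were chosen after their values were seen. TGIF1 was chosen for its sequence with its test results known. The regulators and the lists were chosen with earlier results of these data known. Alternatives were separate fits, an intensity trend, array weights, median centring, leaving out dim genes, the methods' t-test, other thresholds and each array left out. For the levels and the lists they were chosen after seeing the data.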

Additional observations from a re-analysis of the deposited data

Results flagged for a closer look

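The change upon EMT was unequal between at least 1 pair of cell lines for 9 of the 10 regulators, against 60.2% of all genes, where limma tested the difference itself at an adjusted p below 0.05. The values are differences of log2 fold changes. PMEPA1 differed by 3.23 between HCC827 and A549, by 1.63 between NCI-H358 and A549 and by -1.59 between NCI-H358 and HCC827. In the same order the differences of SMAD7 were 1.17, 0.51 and -0.66, those of SMURF2 0.44, -1.33 and -1.77, and those of SMAD3 0.82, -1.23 and -2.05. SMAD6 differed between NCI-H358 and A549 by 0.81 and between NCI-H358 and HCC827 by 1.06, and SKI by 0.87 and 0.62. BAMBI differed from A549 by -1.53 in HCC827 and by -1.89 in NCI-H358. SKIL differed by -0.82 between NCI-H358 and A549, and SMURF1 by 0.37 between HCC827 and A549 and by -0.42 between NCI-H358 and HCC827. The calls of SMURF1 were lost in 14 and 5 of the 18 refits that each dropped 1 array, with limma adjusted p up to 0.11 and 0.0783. Without parental A549 replicate 1, the highest of its group, the former difference was 0.22. It was also lost in a fit of these lines alone (adjusted p = 0.0704), with an intensity trend (0.0581) and with array weights (0.0571). Of the refits it held only in those without parental A549 replicate 2 or 3 or parental NCI-H358 replicate 1 or 3. The latter was lost without parental or mesenchymal HCC827 replicate 3, parental NCI-H358 replicate 1 or mesenchymal NCI-H358 replicate 1 or 2.

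In SMURF2 and SMAD6 every mesenchymal array moved away from the parental arrays in opposite directions in NCI-H358 and HCC827. By the sample labels all 3 lines had 3 weeks in TGFβ, while the ranges in the methods differ by line. Any part of the time in TGFβ in these differences was not tested.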

How the results depend on the processing

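No call of PMEPA1, SMAD7, SMURF2 or TGIF1 changed under a separate fit of the lines compared, an intensity trend, array weights, median centring, leaving out dim genes, the methods' t-test or with any 1 array left out. Over all regulators 12 of 330 values changed their side of the threshold under these settings and 49 of 1080 with 1 array left out, 36 of these changes being in SMURF1, and no value that passed changed sign. The methods name the t-test for general use and limma for the arrays. Among changes within a line by that t-test, the falls of SMAD6 in A549 and HCC827 did not pass (adjusted p = 0.085 and 0.0604). Nor did that of BAMBI in NCI-H358 (0.327), while BAMBI passed in HCC827 (0.0300). SKIL in NCI-H358 against HCC827 passed without mesenchymal HCC827 replicate 3 (-0.81, limma adjusted p = 0.00614). With 1 array left out the count of regulators that passed was 6 to 7 for A549, 5 to 6 for HCC827 and 7 to 8 for NCI-H358, that of regulators whose change differed was 5 to 6, 7 to 8 and 6 to 7, and that of neighbouring levels that differed was 23 to 28, and 34 to 37 listed genes passed in 1 direction in all lines.

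With at least 2-fold required, 4 regulators passed in each line, against 7, 6 and 8 without it. The shares of all genes were 8.02%, 11.5% and 9.38% with it and 43.4%, 45.8% and 41.4% without it. With it, the changes of 3 regulators differed between HCC827 and A549, of 4 between NCI-H358 and A549 and of 4 between NCI-H358 and HCC827. In the same order those of 13.4%, 12.7% and 11% of all genes did. At the study's thresholds the counts were 0 for A549, 1 for HCC827 and 1 for NCI-H358, and 1, 0 and 0 for those differences. The shares of all genes there were 1.9%, 2.95% and 2.17%, and 2.92%, 3.01% and 2.06% for the differences. Of all 91 listed genes, markers included, 35 passed in 1 direction in all lines, 18 with at least 2-fold and 6 at the study's thresholds. The shares of all genes were 10.4%, 1.67% and 0.242%, and higher thresholds leave fewer genes by construction. No paired analysis was possible because the labels give no replicate numbers shared between groups.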

Other observations

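LDLRAD4, the closest relative of PMEPA1 and an inhibitor of the same step, was named after its values were seen. Its log2 fold change was 4.20 in A549 and 2.04 in HCC827 (limma adjusted p = 5.25e-12 and 4.59e-08), but 0.08 in NCI-H358 (adjusted p = 0.780). LDLRAD4 was dim in parental cells, with means of 3.59, 2.94 and 2.97 in A549, HCC827 and NCI-H358. Its mesenchymal means were 7.79, 4.98 and 3.05, where array medians were 6.31 to 6.47. In NCI-H358 it was thus dim in both states. NEDD4L, a ubiquitin ligase that acts with SMAD7 and on SMAD2 and SMAD3, fell in A549 and rose in NCI-H358, with changes of -1.57, 0.09 and 0.72 in A549, HCC827 and NCI-H358.

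The ID genes, targets of BMP and SMAD1 and SMAD5 like SMAD6, were also named after their values were seen. In HCC827, where SMAD6 fell, ID1 changed by -4.09, ID2 by -1.45, ID3 by -2.98 and ID4 by -4.37 (limma adjusted p at most 2.18e-07). Of the 10 genes on the BMP list 5 fell in HCC827 and 4 rose. Those that rose were NOG, HEY1, MSX1 and MSX2, by 2.52, 2.06, 1.23 and 1.05. In NCI-H358, where SMAD6 rose, ID2 changed by 1.02, ID3 by 1.32 and ID4 by 0.93, but ID1 by -0.59 (adjusted p at most 0.000118). In A549, where SMAD6 changed by -0.26, ID1 and ID3 rose by 0.57 and 0.77, ID2 fell by 0.42 (adjusted p = 0.0254) and ID4 had a change of 0.29 that did not pass (adjusted p = 0.157). SMAD9, a transducer of BMP signals, rose by 1.59 in A549 and by 0.51 in NCI-H358 and fell by 2.09 in HCC827. TGFB2 fell by 2.28 in A549 and rose by 0.64 in HCC827 and 2.76 in NCI-H358. Tests of whether the changes of these genes differ between lines are not reported here. Any link between the changes of these genes and that of SMAD6 was not tested.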
